A study of Mus musculus with 15 samples.

Results

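Peritubular myoid cells are the flat, smooth muscle-like cells that wrap each seminiferous tubule. They were described here in single-cell RNA-seq of mouse testis. Cells were chosen by their measured UMIs of 4 genes. A cell was taken as myoid when at least 2 of Acta2, Myh11 and Tagln were detected, and when Acta2, Myh11, Tagln and Timp3 together had at least 4 UMIs. Only cells that passed a quality filter were considered, which asked for 500 or more genes, 1000 or more UMIs, and less than 30% of UMIs from mitochondrial genes. A UMI is the molecular tag that marks 1 captured RNA molecule. By this rule 105 of 76494 kept cells were myoid, which is 0.137%, and they came from 10 of 15 libraries. The levels of the 4 rule genes, and every contrast of these cells with other cells, are therefore a description only.

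All mice were DBA/2J males, and each library held cells of 1 testis from 1 mouse, with 3 mice in each of 5 groups. T mice received JQ1, an inhibitor of BET bromodomain proteins, by daily intraperitoneal injection at 50 mg/kg for 3 wk, and testes were taken at 10 wk of age. R mice had the same course and were sampled 6 wk after the last dose, at 16 wk of age. VC-T and VC-R mice received vehicle and were sampled at 10 and 16 wk of age, and UC mice were untreated and 15 wk old, so age and treatment cannot be told apart where UC is the only control. The tissue was digested with collagenase and then trypsin, the fragments were spun at low speed and the supernatant was discarded between these steps, and the final suspension was filtered. How many myoid cells such a preparation keeps was not measured.

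Myoid cells lie on the outer side of the tubular basement membrane. They contract to move sperm and fluid along the tubule, and they lay down part of that membrane together with Sertoli cells. They also secrete growth factors that bear on the spermatogonia inside the tubule.

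The library labelled VC-T 1 stood apart. Late spermatid transcripts (Prm1, Prm2, Tnp1, Tnp2 and 6 others) made up 0.267% of its UMIs, within the range of the 3 T libraries (0.174% to 0.319%), whereas the other 11 libraries held 10.2% to 12.7%. It contained no myoid cell, so it enters the shares and no gene test, and shares are given with and without it. Total UMIs per library ran from 9673587 to 98724982. Of 100326 distinct barcodes, 1276 occurred in more than 1 library. For 5 myoid cells the barcode also occurred in another library, and 0 of those partner barcodes met the marker rule.

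The counts of the 4 rule genes follow from the choice of the cells and do not check the label. Acta2, the smooth muscle actin, had 1183 UMIs in 104 of the 105 cells and was detected in 0.685% of the other kept cells. Myh11, smooth muscle myosin heavy chain, had 442 UMIs in 92 cells (1.86% of other cells), Tagln, an actin-binding protein of smooth muscle, had 268 in 82 (0.250%), and Timp3, a matrix-bound metalloproteinase inhibitor, had 192 in 79 (0.490%). The median depth was 1970 UMIs in myoid cells and 3079 in other cells. Of all Acta2 UMIs in kept cells, 67.7% lay in these 105 cells, against 22.2% for Myh11. In 68 cells all of Acta2, Myh11 and Tagln were detected and in 37 cells 2 of them were. The 6 cells just inside the rule, with 4 or 5 UMIs, had a median of 5985 UMIs and 16.9% late spermatid transcripts, and the 21 cells just outside had 6676 UMIs and 11.9%.

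The cells varied in depth and in germ cell transcripts. They had a median of 1.65% late spermatid transcripts against 3.68% in other cells, and 2.99% mitochondrial UMIs against 0.319%. However, 20 cells exceeded 10% late spermatid transcripts and 17 exceeded 5000 UMIs, and those 17 held 70.6% of all myoid UMIs. In VC-T 2 alone, 5 cells of 25862 to 42899 UMIs carried 16.1% to 17.2% late spermatid transcripts and 41 to 55 Sertoli marker UMIs, and they held 67.2% of that library's myoid UMIs. High doublet scores fell on 17 cells, of which 9 were in VC-T 2, 7 in VC-T 3 and 1 in UC 1. The 77 cells with at most 5000 UMIs and at most 10% late spermatid transcripts are called core cells here. Because deep cells dominate any sum, levels are given as UMIs per 10000 UMIs of a cell, averaged over cells.

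**Figure D1:**
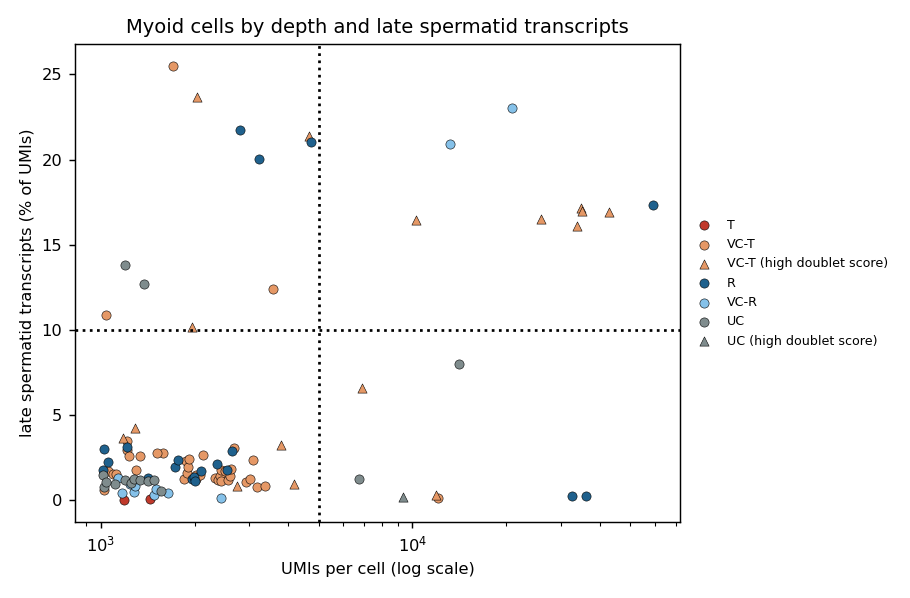
Each point is 1 myoid cell, with its UMIs on a log axis and the percent of its UMIs from late spermatid transcripts, colored by group; triangles are cells with a high doublet score. Most of the 105 cells sit in the lower left field, where the 77 core cells are, and the 5 deepest VC-T 2 cells lie between 16.1% and 17.2%.

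Markers of other cells were checked in the myoid cells. Macrophage markers were nearly absent: 6 UMIs in all, with Pf4, C1qa, C1qc, Cd74, Csf1r and Adgre1 at 0. Of 9 endothelial markers Pecam1 and Plvap were at 0, and the 66 endothelial UMIs fell in 7 cells, with 39 of them being Cldn5, a tight junction protein, in 3 cells. Leydig markers had 151 UMIs, of which 79 were Fabp3, a fatty acid carrier. Sertoli markers had 436 UMIs with Sox9 at 0. All 10 markers of pericytes and vascular smooth muscle were seen, with 94 UMIs in 43 cells, and 18 cells had at least 2 of them. These vessel wall cells also make Acta2, Myh11 and Tagln, so the rule cannot separate them. Rgs5, the pericyte regulator of G protein signalling, had 16 UMIs in 8 cells. In the 62 cells with none of the 10 markers Col4a4 was 19.6 per 10000 UMIs and Cyp26b1 was 14.7, and in the 18 cells with 2 or more they were 16.2 and 6.32. In the same order, Col4a3 was 12.5 and 7.01, Fgl2 14.8 and 14.2, and Ptch1 4.65 and 5.03. The 18 cells were deeper, with a median of 2551.5 UMIs against 1534.5. High doublet scores fell on 5 of the 18 and 7 of the 62. Stromal markers, such as Col1a2 and Dcn, had 537 UMIs, with Lum and Dpt at 0 and 84 cells with at least 2 of them. How much vascular smooth muscle contributes to the levels below was not tested.

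The contractile apparatus was the first group of genes that stood out. Folds over other cells compare mean CPM, a gene's summed UMIs scaled to the same total in every library, averaged over the 10 libraries with members. Each such fold has the same small constant, given with the processing, added to both CPM. For genes over 10-fold it therefore lies below the plain ratio. Of 27 genes of smooth muscle contraction, 25 had at least 10 UMIs in myoid cells. Of those, 21 were over 10-fold above other cells. Of all genes with at least 10 UMIs, 6.46% were over 10-fold. Since genes enter that count through the myoid cells themselves, the counts are a description. Myl9, the regulatory light chain of smooth muscle myosin, was at 33.1, 24.0, 20.7, 24.2 and 32.9 UMIs per 10000 in VC-T 2, VC-T 3, R 2, VC-R 2 and UC 3, the 5 libraries with at least 10 myoid cells. It averaged 0.134 in other cells. Tpm2, a tropomyosin that lies along the actin filament, was at 18.2, 21.7, 12.6, 19.0 and 10.4 in the same order, and 0.0208 in other cells. Among these libraries UC 3 was highest for Tpm1 (27.7 against 13.5 to 18.6) and lowest for Tpm2. Cald1, caldesmon, was 119-fold and Mylk, the kinase of the light chain, 32.9-fold over other cells. Des, the muscle intermediate filament desmin, was found in 51 myoid cells and in 0.0943% of other cells. Actg2, enteric smooth muscle actin, was an exception at 1.52-fold, and 39.1% of other cells had a UMI of it.

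Serum response factor activates many smooth muscle genes by binding the CArG box, a short element with a core of A and T. RefSeq promoters on GRCm38.p6 were searched on both strands for the CArG box in the 250 bases before the start site, with a match allowing 1 mismatch in the core counted separately. Promoters were found for 25 of the 31 contraction and rule genes (none for Tagln, Myh11 and 4 others), which gave 29 promoters. An exact box was in 3 of these 29 (10.3%) and in 482 of 32851 promoters overall (1.47%), and a box with at most 1 mismatch was in 6 (20.7%) against 8.59%. Boxes of 3 genes that the myoid cells carry are shown as examples of the sequences behind those counts. Each is given with the box in capitals and the position of its first base from the start site. The other exact box, in Vcl at -227, is not shown, nor are further boxes with 1 mismatch in Pdlim3, Timp3, Myl9 and Acta2. The core of the box can also hold a TATA-like run, and no other motif was searched. A match describes letters in this window and not a bound site.
Acta2 at -84, chr19:34255423-34255482, minus strand, 1 mismatch: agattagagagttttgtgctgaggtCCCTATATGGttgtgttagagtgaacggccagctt
Myl9 at -161, chr2:156775278-156775337, plus strand, exact: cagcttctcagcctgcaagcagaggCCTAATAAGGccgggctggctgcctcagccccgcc
Myl6 at -50, chr10:128493025-128493084, minus strand, exact: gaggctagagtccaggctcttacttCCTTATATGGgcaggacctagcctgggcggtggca

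The second group was the basement membrane and matrix. Of 36 genes, 20 had at least 10 UMIs and 18 of these were over 10-fold above other cells. Outside that list, the type IV collagen chains of specialized basement membranes, Col4a3 and Col4a4, were among the 30 genes with the largest fold over other cells, at 231-fold and 228-fold. Col4a4 was at 19.0, 15.3, 19.9, 16.8 and 17.5 UMIs per 10000 in VC-T 2, VC-T 3, R 2, VC-R 2 and UC 3, a mean of 17.7 ± 1.82 (SD, n = 5), with 0.0432 in other cells. It varied less between these libraries than any of the other 29 leading genes, with a highest value 1.30 times its lowest. Col4a3 was at 12.7, 6.51, 14.7, 9.89 and 9.63, a mean of 10.7 ± 3.13 (SD, n = 5). Both chains were detected together in 68 cells, Col4a3 alone in 12, Col4a4 alone in 13 and neither in 12. The genes lie head to head on chromosome 1 (GRCm38), Col4a4 at 82448423 to 82586849 on the minus strand and Col4a3 at 82586921 to 82722059 on the plus strand. The 71 bases between their start sites are shown because this one stretch separates the start sites of both leading genes, and 69.0% of its bases are G or C.
Between Col4a4 and Col4a3, chr1:82586850-82586920, plus strand: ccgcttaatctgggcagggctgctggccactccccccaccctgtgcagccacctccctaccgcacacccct

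Col4a1, a chain of the common type IV collagen, was 119-fold over other cells. In a separate endothelial set of 7 kept cells, none of them myoid, it was at 608 CPM with these cells pooled. In myoid cells it was at 272 CPM as the mean of library sums, and at 5.75 UMIs per 10000 averaged over cells. Which of these 2 sets was higher on a per-cell average was not tested. Lamc3, a laminin chain, was 105-fold over other cells. Col1a2, a chain of fibrillar collagen, was at 8.76, 9.41, 6.43, 11.9 and 10.7 UMIs per 10000 in the same 5 libraries. Sparc, a matrix glycoprotein, had a mean of 23.4 ± 4.05 (SD, n = 5) in these libraries. By CPM it was at 958 in myoid cells and 1780 in the 292 cells that carried Leydig markers, called the Leydig set. The myoid CPM averages the sums of 10 libraries, in which deep cells weigh most, and the Leydig CPM pools all its cells. Which of the 2 was higher on a per-cell average was not tested. Fn1, fibronectin, had 2 UMIs in all.

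Secreted factors and enzymes made the third group. Of 40 listed secreted factors, 14 had at least 10 UMIs and 11 of these were over 10-fold above other cells. Among the leading genes outside that list, Cyp26b1, the enzyme that degrades retinoic acid, was at 12.7, 9.22, 11.8, 16.8 and 15.4 UMIs per 10000, found in 83 cells and 181-fold above other cells. Fgl2, a fibrinogen-like protein, was at 18.3, 8.05, 11.7, 21.5 and 17.7. Ccn2, connective tissue growth factor, was 203-fold over other cells and Sct, the hormone secretin, 189-fold, with the constant added. Their mean CPM was 364 and 251 in myoid cells, and 0.796 and 0.333 in other cells. Igfbp6, a binding protein for insulin-like growth factors, was 475 CPM in myoid cells and 127 in the Leydig set, whereas Igfbp7 was at 811 and 860. Aldh1a1, a retinoic acid-producing enzyme, went the other way, with 115 CPM in myoid cells and 1763 in the Leydig set. These CPM set a mean of library sums, in which deep cells weigh most, against pooled Leydig cells. Averaged over myoid cells, Igfbp6 was at 11.7 and Igfbp7 at 18.8 UMIs per 10000, and a per-cell comparison with the Leydig set was not made. Gdnf, the niche factor of spermatogonial stem cells, had 10 UMIs in 8 cells. Csf1, the macrophage growth factor, had 11 in 10 cells. Lif and Inhba had no UMI.

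Of 34 listed hormone, peptide and hedgehog receptors, 15 had at least 10 UMIs and 8 of these were over 10-fold above other cells. Ptch1, the hedgehog receptor, had 92 UMIs in 48 cells and was 85.1-fold over other cells, at 6.10, 2.02, 2.82, 7.96 and 3.36 UMIs per 10000 in VC-T 2, VC-T 3, R 2, VC-R 2 and UC 3. VC-R 2 was the highest and VC-T 3 the lowest, and no test was made of these 5 libraries. Pdgfra, the receptor for platelet-derived growth factor, had 35 UMIs in 29 cells, and Ednra, an endothelin receptor, had 32 in 26. Of transcription factors, Nr2f2 was found in 48 cells, Tcf21 in 19 and Myocd, the smooth muscle coactivator, in 17. In the 3755 cells of the Sertoli set Ptch1 was at 4.10 CPM, against 156 in myoid cells.

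**Figure D2:**
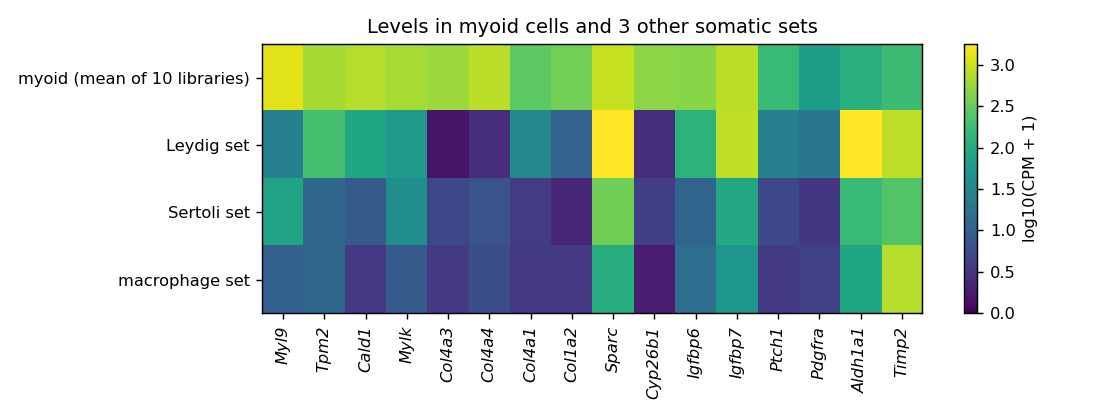
Color gives log10(CPM + 1) of 16 genes in myoid cells (mean of 10 libraries) and in the Leydig, Sertoli and macrophage sets. Col4a3, Col4a4, Cyp26b1 and Col1a2 stand out in the myoid row, and Sparc, Igfbp7 and Aldh1a1 are as high or higher in the Leydig row. The myoid row averages library sums, in which deep cells weigh most, and each other row pools all cells of its set.

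**Figure D3:**
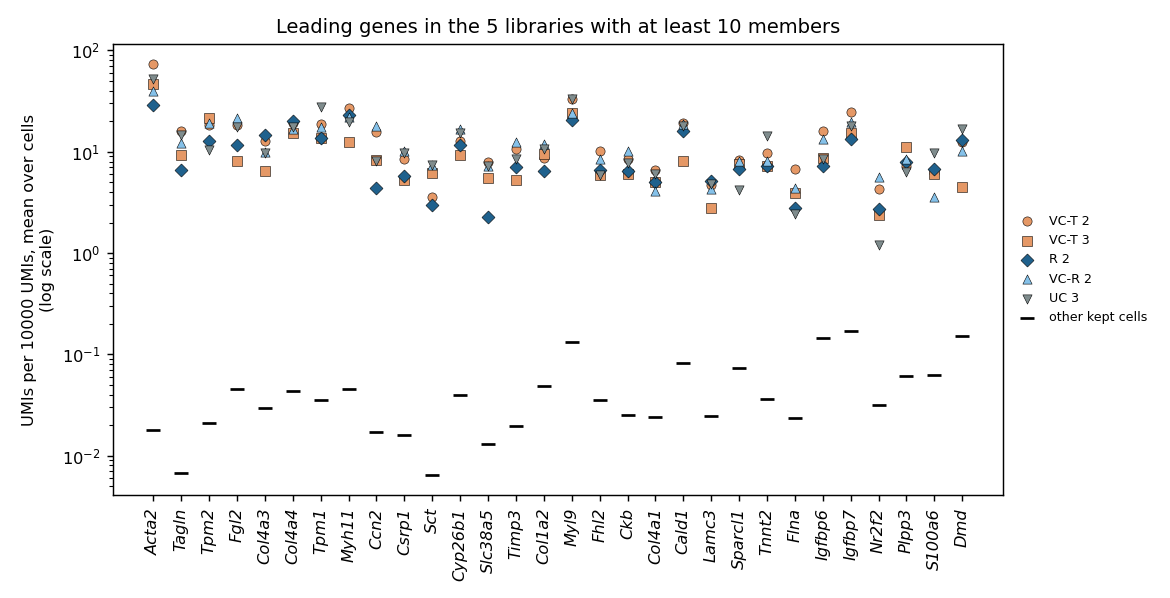
The 30 leading genes are ordered by fold over other cells, with UMIs per 10000 UMIs on a log axis. Points are the mean over myoid cells in the 5 libraries with at least 10 of them, and black dashes are the other kept cells; Col4a4 points lie between 15.3 and 19.9 and the dash at 0.0432.

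Of 13 listed genes of BET proteins, the targets of JQ1, and of the elongation factor P-TEFb with related genes, 6 had at least 10 UMIs in myoid cells, with a median fold of 2.25 over other cells. Their summed level was 5.80 UMIs per 10000 in myoid cells, 6.60 in core cells and 3.76 in other cells. Brd2, a broadly expressed BET protein, had 58 UMIs in 28 cells and was 1.53-fold over other cells. Brdt, the testis-specific BET protein of germ cells, had 55 UMIs in 15 cells, and its level was 0.240 UMIs per 10000 in the 77 core cells against 1.00 in other cells. Hexim1, a gene often used as a readout of BET inhibition, had 9 UMIs in 8 cells, so it could not be compared between groups.

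Abundance was compared between the groups over mice. VC-T libraries held 0, 36 and 20 myoid cells, R libraries 4, 14 and 2, VC-R libraries 0, 11 and 0, UC libraries 2, 2 and 12, and T libraries 0, 0 and 2. VC-T 2 and VC-T 3 held 53.3% of all myoid cells. Shares were 0.950% (exact Clopper-Pearson 95% interval 0.666% to 1.31%) in VC-T 2, 0.543% (0.332% to 0.837%) in VC-T 3, 0.290% (0.145% to 0.519%) in VC-R 2, 0.270% (0.140% to 0.471%) in UC 3 and 0.181% (0.0991% to 0.304%) in R 2. T 3 was at 0.0779% (0.00943% to 0.281%), and the counts of 0 in T 1 and T 2 allow shares up to 0.0514% and 0.0751% if the limit is set at 3 cells of the library, or 0.0631% and 0.0924% as exact upper bounds. For VC-T 1, VC-R 1 and VC-R 3, also at 0, the exact upper bounds were 0.0634%, 0.0730% and 0.126%. Intervals and limits cover counting error only. Replicates of 1 group thus differed by more than counting error in VC-T, R and VC-R.

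**Figure D4:**
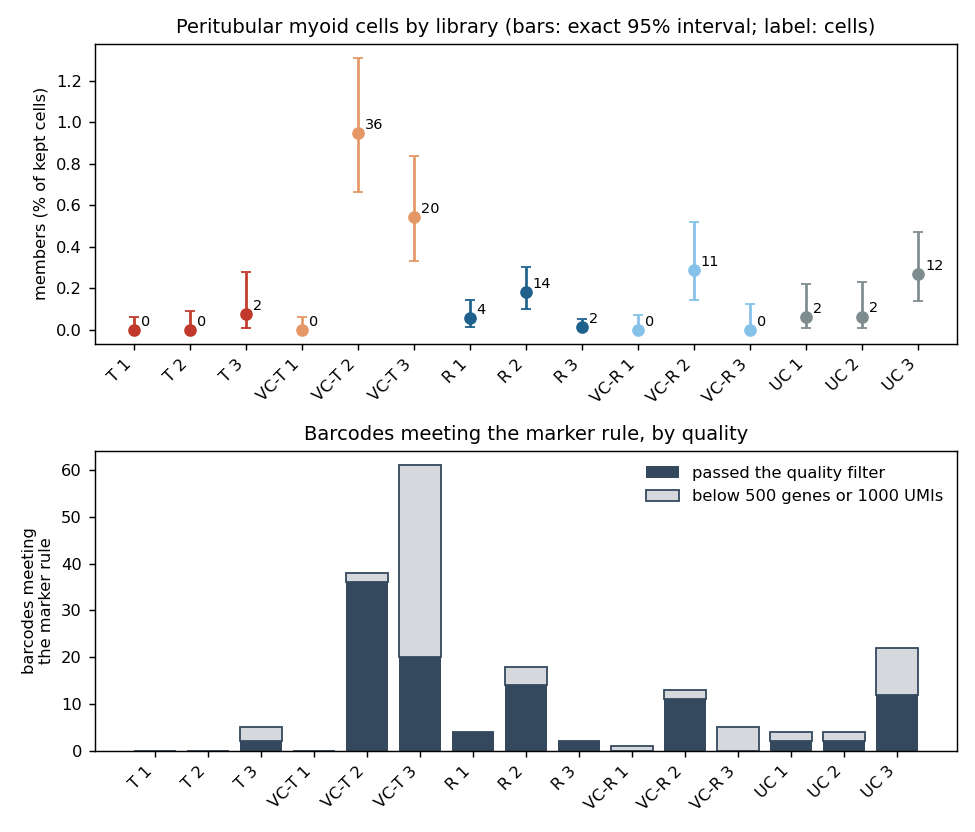
Upper panel, share of kept cells that were myoid in each of 15 libraries with exact 95% intervals and cell counts. Lower panel, barcodes meeting the marker rule, split by the quality filter; VC-T 3 has 61, of which 41 were below the filter.

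None of 6 comparisons of the share passed, and with these group sizes none could have passed after adjustment. The mean share with its SD over 3 mice was 0.026% ± 0.045 for T and 0.497% ± 0.477 for VC-T. For R it was 0.0843% ± 0.0865, for VC-R 0.0968% ± 0.168 and for UC 0.132% ± 0.120. T against VC-T differed by -0.472 percentage points (exact two-sided permutation p = 0.4, adjusted 0.75 over the 6 comparisons), and without the library labelled VC-T 1 by -0.720 (exact permutation p = 0.2). Without VC-T 2 the difference was -0.245 (exact permutation p = 0.8). T against UC differed by -0.106 (exact permutation p = 0.3, adjusted 0.75). R against VC-R differed by -0.0125 (exact permutation p = 1.0) and R against UC by -0.0475 (exact permutation p = 0.5, adjusted 0.75). Both directions turned when 1 library was left out, R against VC-R to 0.0843 without VC-R 2 and R against UC to 0.0215 without UC 3. Over cells with under 1% late spermatid UMIs, R against VC-R was -0.204 (exact permutation p = 1.0). Against pooled controls T differed by -0.289 (exact permutation p = 0.238, 3 mice against 6), or -0.352 without VC-T 1 (exact permutation p = 0.107), and R by -0.0300 (exact permutation p = 0.714). The smallest exact permutation p that 3 against 3 allows is 0.1, and 0.0238 for 3 against 6. Even at these limits, adjustment over the 6 comparisons leaves every adjusted p above 0.05, so these tests could not decide the question. With 1 library left out, 3 against 2 allows none below 0.2, the value of T against VC-T without VC-T 1. A true difference could therefore have been missed. A share also depends on how many germ cells a library holds, and the T libraries lacked late spermatids. Over cells with under 1% late spermatid UMIs, T against UC was -0.171 (exact permutation p = 0.1). In that setting T against VC-T was -0.312 (exact permutation p = 0.4), and T against pooled controls -0.241 (exact permutation p = 0.0952). These p were not adjusted.

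Set against another somatic cell, the R libraries were low, and so were T 1 and T 2. Per 100 cells of the Sertoli set there were 0.816, 2.54 and 0.127 myoid cells in R 1, R 2 and R 3, and 6.06, 3.39 and 9.68 in UC 1, UC 2 and UC 3. The groups did not overlap, with an exact permutation p of 0.1, the smallest possible. VC-R 2 was at 7.43 and the other VC-R libraries at 0, so R overlapped VC-R, and this ratio was chosen after the data were seen. T 1, T 2 and T 3 were at 0, 0 and 4.08, and VC-T 1, VC-T 2 and VC-T 3 at 0, 10.3 and 10.7. T overlapped UC, with a difference of -5.02 (exact permutation p = 0.2), beside -5.21 for R against UC. The R libraries had the most cells with Sertoli markers, 2615 against 216 in UC, and whether all of them are Sertoli cells was not tested.

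In T the 2 myoid cells, both in T 3, had 1186 and 1436 UMIs, 0% and 0.0696% late spermatid transcripts, and 4 and 6 Acta2 UMIs. Tagln had 5 and 2 UMIs and Myl9 2 and 3. Col4a3, Col4a4, Col1a2, Sparc and Ptch1 had 0 UMIs in both, and the second cell had 2 UMIs of Rgs5. With 2622 UMIs between them, an absence could not be shown at this depth. Gene expression in T could not be tested, since a comparison needed 2 libraries in each group, and VC-R also had only 1 with members. R against UC was the comparison of the design that could be made, and only with libraries of as few as 2 myoid cells. At the planned minimum of 5 cells, R 2 and UC 3 alone would remain in those groups and no test exists.

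No gene passed the test between R and UC in the myoid cells. UMIs were summed per library, 20 cells against 16, and of 2503 genes tested 0 passed (0% of all genes tested), at adjusted p under 0.05 and a log2 fold change over 1 in size. This was edgeR's quasi-likelihood test in 1 fit over the 10 libraries with members, and 85 genes had an unadjusted p under 0.05. DESeq2 also called 0, with 111 genes at an unadjusted p under 0.05 of 17028. The biological coefficient of variation was 0.799, and large differences as well as small ones could have been missed. Prss52 at a log2 fold change of 7.06 (SE 2.42) and Dazl at -6.57 (SE 2.08) did not pass (edgeR adjusted p = 0.996 for both).

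The 30 leading genes were described for R against UC with their errors. All 30 were tested, with log2 fold changes from -1.46 to 1.27, a median of -0.02, and standard errors of 0.99 to 1.39, and over all 2503 genes the median was 0.23. Col4a3 was at 28.1, 14.7 and 17.0 UMIs per 10000 in R 1, R 2 and R 3 and at 5.57, 15.0 and 9.63 in UC 1, UC 2 and UC 3. The groups overlapped, and the log2 fold change of the summed UMIs was 1.27 (SE 1.12, edgeR adjusted p = 0.996). Sct was at 4.97, 2.96 and 0 in R and 18.5, 5.60 and 7.35 in UC. These did not overlap, and the log2 fold change was -1.46 (SE 1.27, edgeR adjusted p = 0.996). R 3, UC 1 and UC 2 held 2 cells each, so each of their levels rests on 2 cells. Of the contraction list 20 of 27 genes were tested, with a median log2 fold change of -0.36, and of the matrix list 11 of 36, with 0.11. None passed in either direction.

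The genes with the smallest p did not pass, and the UMIs of most of them lay in 1 library. Lower in R were Dazl, a germ cell RNA-binding protein, with 0 UMIs in R and 12 in UC, all in UC 2, and Sycp1, of the synaptonemal complex, with 7 in R and 43 in UC, 37 of them in UC 2. Zmat2 had 0 in R and 2, 3 and 3 in UC. Higher in R were Prss52 with 45 UMIs in R and 0 in UC, Ccdc185 with 33 and 0, and Col20a1 with 34 and 0. R 3 held 45, 29 and 31 of these, and its deepest cell had 59164 UMIs and 17.3% late spermatid transcripts. In UC 2 one cell of 14156 UMIs held most of the library's 15178 UMIs. The part of other cells' RNA in these differences was not tested.

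Comparisons added after seeing the data also gave no gene. R against VC-R and UC together had 0 of 2503 (0% called), with 50 genes at an unadjusted p under 0.05 by edgeR and 32 by DESeq2. VC-T against UC, vehicle-treated at 10 wk against untreated at 15 wk, had 0 of 2503 (0% called), with 13 and 130. There the smallest p among higher genes was that of Defb19, a Sertoli gene, with 155 UMIs in VC-T, 142 of them in VC-T 2, and 1 in UC (log2 fold change 4.45, SE 1.61, edgeR adjusted p = 1.00).

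Many barcodes met the marker rule but not the quality filter. There were 72 of them beside the 105, all short of genes or UMIs and none over the mitochondrial limit, with a median of 722.5 UMIs. VC-T 3 held 41, UC 3 10, VC-R 3 5, R 2 4 and T 3 3. With them, VC-R 3 and VC-R 1, which had no myoid cell, gained 5 and 1 barcodes, whereas T 1, T 2 and VC-T 1 stayed at 0.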

How the data were processed

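Single-cell RNA-seq (10x 3' v3.1 per the labels) was deposited as UMI counts per gene and barcode for 15 libraries, which the authors made with Cell Ranger (3.0.0 per the labels, 7.0.0 per the file headers) on mm10. Whether intronic reads were counted is not given in the sources used here. The ambient RNA correction and doublet removal of the study were not in these counts. Groups came from the labels. Cells with at least 500 genes, 1000 UMIs and under 30% mitochondrial UMIs were kept, and the 5.4% of cells with the highest Scrublet score per library were marked, not removed. The Leydig, macrophage and Sertoli comparison sets needed at least 3 markers and 6 UMIs. The endothelial set needed at least 2 of Pecam1, Cdh5 and Egfl7 and 3 UMIs. Shares were compared by exact two-sided permutation over mice with Benjamini-Hochberg adjustment over 6 comparisons. UMIs were summed per library and tested in edgeR 4.0.16 (TMM, filterByExpr, quasi-likelihood), with DESeq2 1.42.0 as an alternative. The planned minimum of 5 cells per library, at which R and UC had 1 library each, fell to 1 by the planned rule, which made R against UC testable but not T or VC-R, which had 1 library each with members. P-values measure the spread between libraries, with 1 library per mouse. In the gene tests this spread also holds differences between single cells, since R 3, UC 1 and UC 2 held 2 cells each. In these, 1 cell gave 59164 of 61806, 9343 of 10454 and 14156 of 15178 UMIs, in that order. The spread between mice and that between cells cannot be told apart there. Members, gene lists and tests were chosen with earlier results of these data known. Named genes were the 3 with the smallest p in each direction where none passed, the 30 leading genes by fold among those of at least 200 CPM, and the most abundant genes of each list. Fold over other cells was the mean CPM of myoid cells plus 1, divided by the mean CPM of other cells plus 1. The order of the leading genes depends on this added 1. The test script was checked on simulated data. Analyses ran in Python 3.11.15 (scanpy 1.11.5, scipy 1.17.1) and R 4.3.3. Alternatives changed the filter, normalization, denominator, rule, doublets and libraries used.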

Additional observations from a re-analysis of the deposited data

How the results depend on the processing

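Of 94 alternative settings of the 6 share comparisons, 86 kept the direction and none passed the threshold. Settings of 3 mice against 3 or fewer could not pass, since their exact permutation p cannot fall below 0.1. After adjustment over the 6 comparisons, 3 mice against 6 could not pass 0.05 either. The 46 alternatives of the gene comparisons all gave 0 genes. The direction of R against VC-R turned on the log2 scale with 0.5 cells added (0.70, exact permutation p = 0.7). Leaving out 1 library gave -0.0609 to 0.0843 for R against VC-R, -0.0960 to 0.0215 for R against UC and -0.0784 to 0.00522 for R against VC-R and UC; the turns came without R 1, R 3 or VC-R 2, without UC 3, and without R 3, VC-R 2 or UC 3, in that order. For T the ranges were -0.720 to -0.245 against VC-T, -0.141 to -0.0369 against UC and -0.352 to -0.162 against VC-T and UC. Leaving out VC-T 1 or VC-T 2 moved T against VC-T to -0.720 and -0.245, and leaving out UC 3 moved T against UC to -0.0369. For R against UC the genes called stayed at 0 without each library, with 13 to 210 genes at an unadjusted p under 0.05.

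The replicate numbers did not pair the mice: correlations of same-numbered libraries ranged from -0.664 to 0.344. With a replicate block the share differences were -0.472 (T against VC-T, exact permutation p = 0.5), -0.0125 (R against VC-R, exact permutation p = 1.0), -0.106 (T against UC, exact permutation p = 0.25) and -0.0475 (R against UC, exact permutation p = 0.75), and the block gave 0 genes for R against UC, with 24 at an unadjusted p under 0.05.

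With 105 cells, of which 5 libraries held 93, the depth limits both shares and gene tests. Gene comparisons of T with VC-T, T with UC and R with VC-R, and the difference between the 2 drug effects, gave no value in any setting, nor did R against UC at a minimum of 5 or 10 cells per library, since a group then had fewer than 2 libraries.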
